A study of Mus musculus with 6 samples.

Results

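Smooth muscle cells are the contractile cells that wrap the airways and the larger blood vessels of the lung. They shorten when calcium activates myosin light chain kinase, which lets smooth muscle myosin pull on actin filaments, and they relax when nitric oxide raises cyclic GMP. They also lay down the elastic and collagen fibres of airway and vessel walls. Their gene programme is driven by serum response factor with its partner myocardin, which bind a short DNA element called the CArG box.

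The cells were chosen by their own counts in 6 single-cell RNA libraries from mouse lung, so the genes of that choice are described here without a test. A cell barcode was kept with 500 or more genes and at most 15% mitochondrial molecules. It needed 5 or more unique molecular identifiers (UMIs, each a counted RNA molecule) summed over Myh11, Actg2, Des and Cnn1, and 5 or more of Acta2. It could hold at most 1 UMI of the pericyte genes Cox4i2 and Higd1b, 1 of the endothelial genes Cdh5, Pecam1 and Cldn5, 1 of the leukaemia genes Trap1a and Trnp1, and 0 of Ptprc and Epcam. Of 24640 barcodes past the gene and mitochondrial filters (28516 deposited), 243 met all of this.

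The study compared the non-haematopoietic (niche) cells of normal mouse lungs (Control 1, 2 and 3) with those of lungs infiltrated by acute myeloid leukaemia of the genotype Trp53 R172H/Δ (AML 1, 2 and 3). Lungs of both groups were digested with Liberase and DNaseI and niche cells were sorted. Sorted GFP+ leukaemia cells were then mixed back into the AML suspensions, 20% to 80% niche cells, so any leukaemia RNA in these libraries also reflects that mixing. The labels used here give no strain, age or sex of the mice and do not state if libraries within a group are separate animals, so p-values measure only the spread between libraries, which may be technical.

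Control 1, 2 and 3 held 20, 46 and 31 smooth muscle cells, and AML 1, 2 and 3 held 37, 49 and 60. Summed UMIs of these cells ran from 187843 in AML 2 to 430701 in Control 2. The median cell had 12718.5, 9382.5 and 8906 UMIs in the Controls but 6904, 3606 and 5835.5 in the AML libraries, with no overlap between the groups. Thinned to 2000 UMIs a cell, which left out 1 Control and 10 AML cells, the median number of genes was 1109 ± 49.3 in Control and 1045 ± 46.0 in AML libraries (SD, n = 3 each). No smooth muscle barcode was shared between libraries, and every pair within a group differed by more than counting noise (chi-square per degree of freedom 1.96 to 5.58).

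Their share of the sorted cells did not differ detectably between the groups. They made up 1.20%, 1.27% and 0.916% of the niche barcodes of the Controls against 0.964%, 1.36% and 1.25% for AML, with exact 95% binomial intervals that all overlap (widest 0.734 to 1.85% in Control 1; counting error only). The group values overlapped, and the mean difference of 0.0648 percentage points gave an exact two-sided permutation p of 0.6, where 3 libraries against 3 cannot go below 0.1. A narrower denominator held the niche barcodes with at most 1 UMI of the endothelial genes and 0 of Epcam. It required no mesenchymal gene, and which other cells it held was not tested. It counted 165, 266 and 250 barcodes in Control 1, 2 and 3 and 410, 687 and 674 in AML 1, 2 and 3. Of these, smooth muscle cells made up 9.02%, 7.13% and 8.90% in the AML libraries against 12.1%, 17.3% and 12.4% in the Controls. The share was lower in every AML library (exact permutation p = 0.1, the smallest possible). The sort and the cells added to the AML libraries bear on both shares. At the edge of the choice, 7 cells sat just inside it and 17 barcodes just outside. Pericyte genes alone kept 42 barcodes out, and endothelial genes alone 29.

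Smooth muscle genes that the choice did not use stood high in these cells beside those it used. Of the genes used, Acta2, the actin of the contractile filament, stood at 18502 CPM (UMIs of a gene per 1000000 UMIs) over all 243 cells against 126 in the other niche cells, and Myh11, the smooth muscle myosin heavy chain, at 4044 against 35.3. Actg2, a second smooth muscle actin, Cnn1, which binds actin, and Des, the muscle intermediate filament, lay between 1349 and 1397 CPM. The leading genes that were not used were Tagln, an actin-bundling protein, at 14159 CPM against 118 elsewhere, Tpm2, a tropomyosin, at 5448 against 44.8, and Myl9, the regulatory myosin light chain, at 3809 against 35.1, all pooled over the 243 cells. Lmod1, which nucleates actin filaments, Synpo2, an actin-binding protein, and Npy1r, a receptor for neuropeptide Y, were also among the first 15. These levels describe the cells that the choice made and carry no test.

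Actc1, known as the cardiac actin, had the largest ratio over both pericytes and alveolar duct myofibroblasts of all genes outside the choice, at 2369 CPM against 0 in 107 pericytes and 0.758 in 182 alveolar duct myofibroblasts. The latter name stands here for cells with 2 or more Pdgfra UMIs and 1 or more of Aspn and Hhip. These cells also held genes known from fibroblasts, with Dcn at 4905, Inmt at 4331 and Pi16 at 638 CPM. Their Acta2 was at 31.1 CPM, so the name is only that of the choice and other fibroblasts may be among them. Some genes that heart muscle is known for did not come with it, and others did. Myh6, Myh7, Myl7, Nppa, Sln and Nkx2-5 had 0 UMIs in all 243 cells, and Tnni3 had 6 UMIs in 1 cell. Tnnt2, cardiac troponin T, had a UMI in 54 of the 243 cells (22.2%). Tcap and Myom1, known from striated muscle, were at 427 and 414 CPM. Markers of blood and endothelial cells were low, while those of some mesenchymal neighbours were not and are given with the matrix genes. Of 12 blood cell markers, 6 were at 0 (Ptprc, Cd52, Coro1a, Laptm5, Cd3e and Cd79a), and the list summed to 25.5 to 65.3 CPM in Controls and 26.1 to 48.0 in AML libraries. The 10 endothelial markers summed to 44.1 to 98.1 and 45.1 to 114 CPM. Leukaemia and erythroid markers summed to 37.1 to 241 and 42.6 to 232, with Trap1a at 0. The 11 epithelial markers summed to 90.6 to 314 and 209 to 351, with Epcam, Krt8 and Foxj1 at 0.

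The CArG box was searched in RefSeq promoter windows (GRCm38.p6, 250 bases before to 50 after each start site), since contractile genes are its known targets. It was present in 1.81% of 27025 genes with a window, on either strand, and in 8 of 29 matched contractile genes outside the choice. None of the 3 matched genes of the choice had one in this window, which says only that these letters are not there. The boxes of 5 contractile genes, which encode parts of the filament or its anchors, and of Actc1 are shown 5′ to 3′ on the gene's strand with the box in capitals and 20 bases on each side.
Myl9 (chr2:156775283-156775332, plus strand): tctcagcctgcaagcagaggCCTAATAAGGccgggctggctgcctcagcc
Myl6 (chr10:128493030-128493079, minus strand): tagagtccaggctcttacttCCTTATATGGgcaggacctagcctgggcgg
Cnn2 (chr10:79988524-79988573, plus strand): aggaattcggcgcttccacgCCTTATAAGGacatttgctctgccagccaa
Vcl (chr14:20929151-20929200, plus strand): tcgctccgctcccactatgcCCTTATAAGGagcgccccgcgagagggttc
Ldb3 (chr14:34588687-34588736, minus strand): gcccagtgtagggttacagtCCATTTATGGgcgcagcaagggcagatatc
Actc1 (chr2:114052893-114052942, minus strand): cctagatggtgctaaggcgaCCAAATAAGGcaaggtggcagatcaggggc
Cnn2, a calponin, and Vcl, vinculin of the cell's anchor plaques, share the same 10 letters. A match is a description of the sequence and not a measured binding site.

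The cells were not all alike, and a small set of them carried Hhip, which binds and holds back Hedgehog ligands. It had 2 to 68 UMIs (median 13) in 25 cells, called Hhip cells here by a threshold set after the counts were seen, 1 UMI in 1 cell and 0 in the other 217. The Hhip cells were found in every library, with 3, 5 and 5 in Control 1, 2 and 3 and 4, 3 and 5 in AML 1, 2 and 3. Control 1 cells had 25, 36 and 68 Hhip UMIs, Control 2 cells 8, 10, 21, 28 and 46, and Control 3 cells 6, 10, 18, 36 and 39. AML 1 cells had 11, 12, 16 and 18, AML 2 cells 2, 12 and 20, and AML 3 cells 8, 10, 11, 13 and 13, so no AML cell exceeded 20. These counts are not scaled for depth. The Hhip cells held 3692 to 9660 UMIs of all genes in the Control and 2218 to 5344 in the AML libraries. Hhip over all cells of a library was 433 CPM in Control and 199 in AML libraries without overlap, but did not pass the test (log2 change -1.12 ± 0.31 SE, edgeR adjusted p = 0.156).

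Itga8, a chain of the integrin that binds nephronectin, was found in the cells without Hhip. It had at least 1 UMI in 183 of the 218 other cells (83.9%) and in 0 of the 25 Hhip cells, a count that allows up to 12% of such cells to hold an Itga8 UMI and sets no limit on how many express the gene. Actc1 was found in 158 of the 218 and in 1 Hhip cell, and Notch3, the mural cell Notch receptor, in 98 and in 0. The median Hhip cell had 4128 UMIs and the median other cell 6676. In 16175 endothelial cells, which should lack these genes and had a median of 4320 UMIs, 0.705% held a Hhip UMI, 0.903% an Itga8 UMI and 0.878% an Actc1 UMI.

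**Figure D1:**
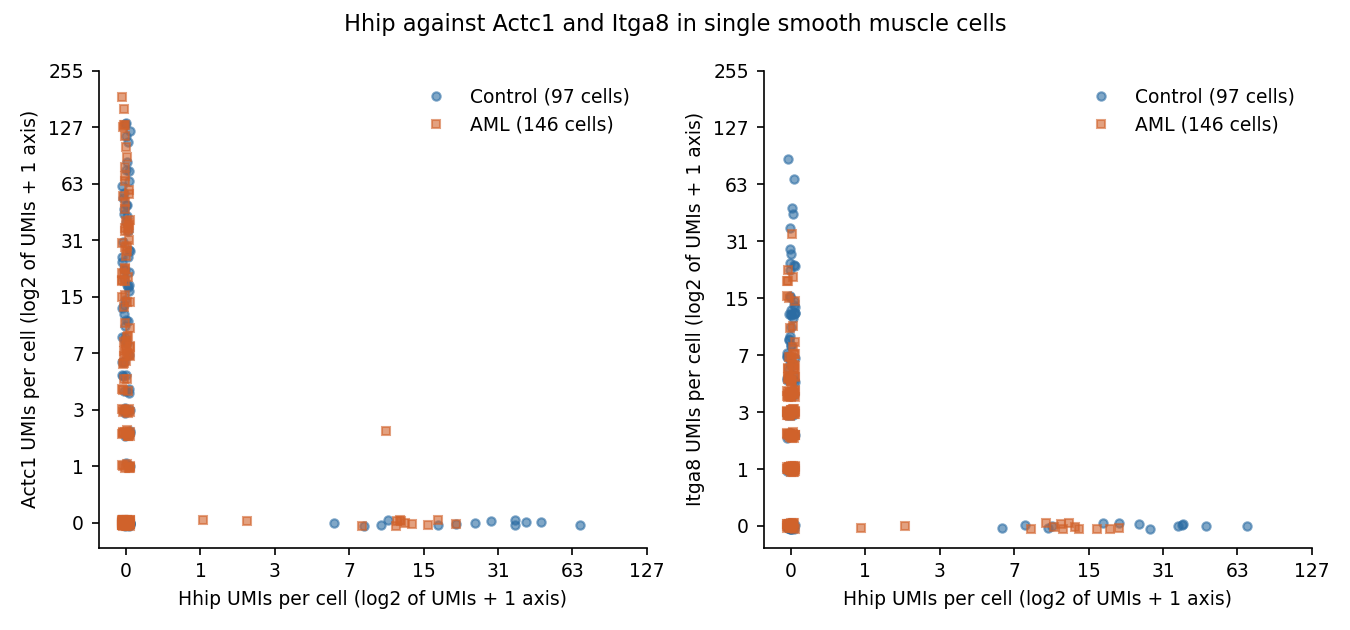
Each point is 1 of 243 smooth muscle cells, with its Hhip UMIs on the x axis and its Actc1 (left) or Itga8 (right) UMIs on the y axis, both on a log2 of UMIs + 1 scale with a small random shift; circles are Control and squares AML cells. The 25 cells with 2 or more Hhip UMIs lie along the x axis, 1 of them with Actc1 UMIs and 0 with Itga8 UMIs.

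The Hhip cells had less of the contractile genes and more of several signalling and matrix genes than the other cells, as pooled levels with no test; the genes were named after their values were seen. Acta2 was at 3716 against 19583 CPM, Myh11 at 1064 against 4262 and Cnn1 at 145 against 1438, whereas Mylk, myosin light chain kinase, was at 1274 against 1172. Rgs2, which damps Gq-coupled receptors, was at 2394 against 150 CPM, and Enpp2, the enzyme that makes lysophosphatidic acid, at 1838 against 213. Aspn, a small matrix proteoglycan, was at 2620 against 230. Wnt5a, a Wnt ligand, was at 314 against 1.77, and Ptch1, the Hedgehog receptor and a known target of that pathway, at 210 against 19.5. Kcnj8, a subunit of the ATP-sensitive potassium channel, was at 435 against 14.7. Aspn, Wnt5a and Hhip are also on the list of alveolar duct myofibroblast markers, and Pdgfra of that list had 0 UMIs in the Hhip cells. Matrix genes known from fibroblasts were also among their leading genes, with Dcn, decorin, at 459 against 4.72 CPM, Dpt, dermatopontin, at 476 against 12.4 and Tgfbi at 395 against 5.30.

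The other cells split by leading genes into further sets in a Leiden clustering chosen after the cells were seen. One of 107 cells was led by Ifitm1, Ndufa4l2, Ccl19 and Col8a1, with Notch3 at 316 CPM against 44.9 in the rest and Ntn4, a netrin, at 549 against 58.2. One of 67 cells was led by Sost, a Wnt antagonist, at 221 against 11.1, with Ncam1, an adhesion molecule, at 256 against 43.4, Cpe, a peptide-processing enzyme, at 988 against 198 and the heat shock gene Hspa1b at 598 against 185. One of 33 cells carried the most Actc1, at 5779 CPM, with Ccn3, a matricellular protein, at 2786 and Fabp4, a fatty acid carrier, at 1179, and Mpp6 and Cirbp were also among its leading genes. It held 0, 2 and 2 cells of Control 1, 2 and 3 and 6, 12 and 11 of AML 1, 2 and 3. A set of 9 cells came from AML 3 alone and may be that library. Since Ccl19, Nrp1, Fbln5, Ccn3, Fabp4, Mpp6, Cirbp and Hspa1b separate these sets and also differ between the groups below, the sizes of the sets are not tested between groups. The part of the mix of sets in those differences was not tested beyond the fits within a set given below.

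Division by lists of airway and vascular markers gave no clean types. By more airway than vascular UMIs 133 cells counted as airway-type and 102 as vascular-type, but Actc1 supplied 84.7% of all airway-list UMIs, and Hhip was in only 25 of the 133. The vascular-type cells had more Gucy1a1, a subunit of the nitric oxide receptor and itself on the vascular list, and more Timp3, a protease inhibitor off the lists, in 6 of 6 libraries (604 against 284 and 2395 against 1131 CPM). The airway-type share was 57.1% ± 2.63 in Control and 52.5% ± 10.3 in AML libraries (SD, n = 3 each; difference -4.61 points, exact permutation p = 0.5), and 54.6% and 51.2% after thinning to 2000 UMIs.

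Few genes of these cells passed a test between AML-infiltrated and normal lungs, and none of the contractile genes outside the choice did. UMIs were summed per library and tested with edgeR. Of 3969 genes tested, 13 passed an adjusted p of 0.05 (0.328%), with 6 higher in AML (0.151%) and 7 lower (0.176%). At an unadjusted p under 0.05 there were 375. The median log2 change of all genes was 0.0059. AML and Control libraries did not overlap for 15% of the genes, 7.48% with AML higher and 7.51% with AML lower. Levels below come from 3′ tags, which carry no scaling for gene length, and are CPM of the summed UMIs after scaling between libraries.

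Of the 34 contractile genes outside the choice, 0 passed with edgeR or with DESeq2, and 2 were at an unadjusted p under 0.05. Of these genes 21 lay above 0 and 13 below, with a median log2 change of 0.09. Tagln was at 9216, 15909 and 13171 CPM in Control 1, 2 and 3 and 12920, 16987 and 24501 in AML 1, 2 and 3, an overlap. Myl9 was at 3397, 4378 and 2999.9 against 4513, 3329 and 6008, which also overlap. Tpm2 had the largest log2 change of the list, at 2751, 5830 and 4737 in the Control against 6061, 6049 and 9998 in the AML libraries, where every AML value was above every Control value (log2 change 0.73 ± 0.28 SE, edgeR adjusted p = 0.454). Mylk (1353 against 1299 CPM in the group means) and Lmod1 (1270 against 1198) differed by less than the spread between libraries. Synpo2 (630 against 429), Synm, an intermediate filament protein (191 against 124), and Ldb3, a Z-disc protein (115 against 77.2), were lower in all AML libraries without passing. The genes of the choice also overlapped, with Myh11 at 5205, 4949 and 3538 in the Control against 3558, 4734 and 4943 in the AML libraries.

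**Figure D2:**
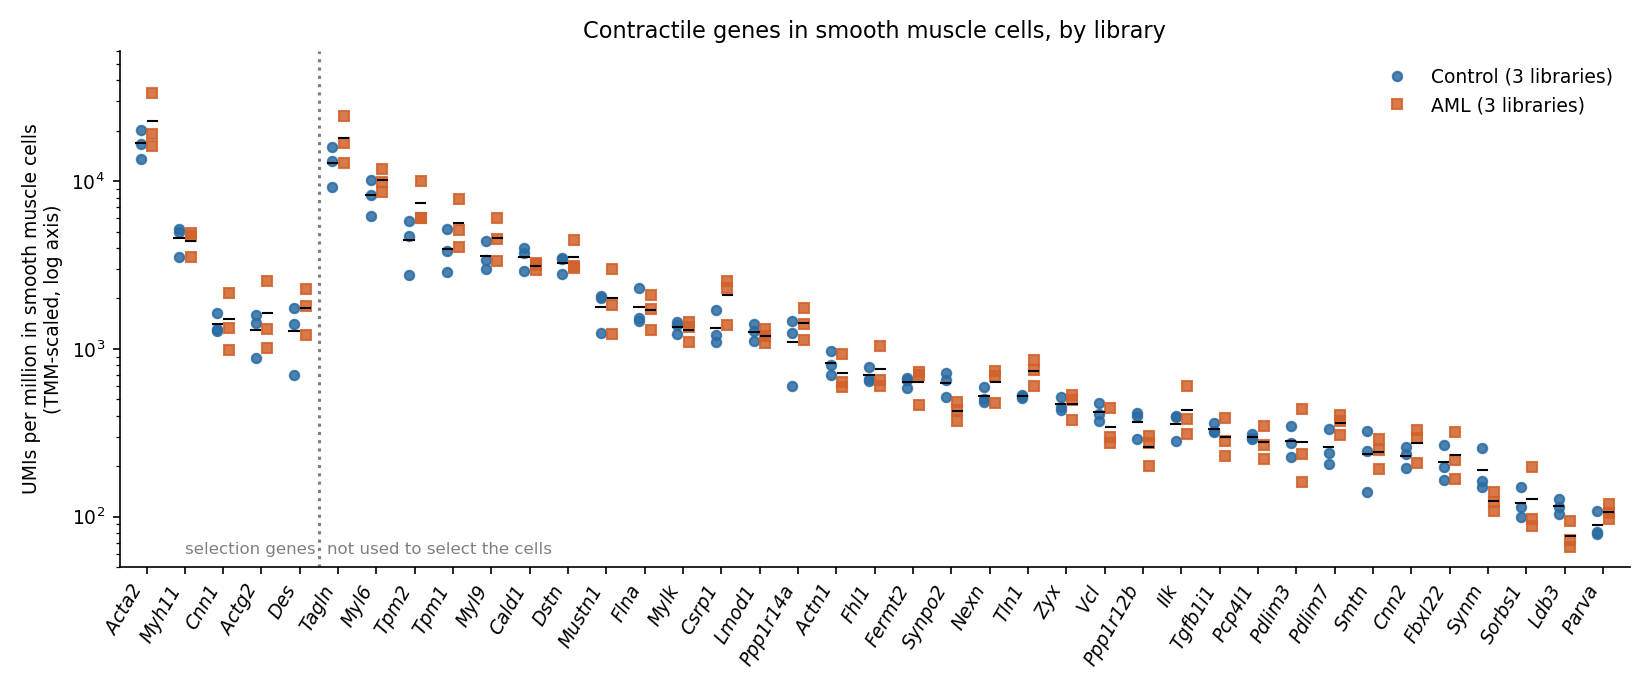
Contractile genes on the x axis and their CPM in smooth muscle cells on a log y axis, 1 point per library (circles Control, squares AML) with the mean of 3 as a black line; the 5 genes left of the dotted line were used to choose the cells. For most genes the libraries of both groups overlap, and Tpm2 and Tln1 are the 2 tested genes whose AML values all lie above the Control values.

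Genes that control contraction did not pass either, and most of them leaned lower. Of 15 transcription regulators tested, 0 passed with edgeR or DESeq2 (1 at an unadjusted p under 0.05). Myocd, myocardin itself, was at 238, 175 and 149 CPM in the Control against 96.3, 233 and 87.7 in the AML libraries. Those values overlap. Prrx1, a mesenchymal homeobox factor, was lower in each AML library (201 against 129, log2 change -0.62, adjusted p = 0.508). Of 15 ion channel and calcium genes, 0 passed by either tool and 0 had an unadjusted p under 0.05, while 14 lay below 0 (median -0.33). Examples are Itpr1, the calcium release channel of the endoplasmic reticulum (185 against 126), Atp2a2, its calcium pump (436 against 359), and Cacna1c, the L-type calcium channel (100 against 80.4).

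Among 7 receptors tested, the endothelin receptor Ednrb was lowest, at 127, 242 and 249 CPM in the Control against 144, 102 and 67.3 in the AML libraries (log2 change -1.002 ± 0.34 SE, edgeR adjusted p = 0.381). Its sister Ednra stood at 147 against 185. No receptor passed with edgeR or DESeq2, and 1 was at an unadjusted p under 0.05. Of 25 genes of contractile tone signalling, among them those of the nitric oxide, cyclic nucleotide and RGS pathways, 0 passed by either tool and 4 were at an unadjusted p under 0.05, all lower in AML. Of the 25, 19 lay below 0 (median -0.37) and 8 had every AML library below every Control. Rgs2 was at 480, 328 and 566 against 309, 155 and 222 CPM (adjusted p = 0.315). Gucy1b1, a subunit of the nitric oxide receptor, was at 440 against 314 and its partner Gucy1a1 at 456 against 481.

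Col3a1 and Fbln5 fell, and most matrix genes tested lay below 0. Col3a1, a fibrillar collagen (chr1:45311538-45349706, mm10), had 916, 623 and 1091 CPM in the Control libraries against 209, 149 and 351 with AML. The groups stood well apart, and Col3a1 fell 3.62-fold (log2 change -1.86 ± 0.33 SE, edgeR adjusted p = 0.0128). Fbln5, which helps to assemble elastic fibres (chr12:101746565-101819055), fell from 242, 138 and 86.0 to 56.2, 23.9 and 35.1 CPM (log2 change -1.97 ± 0.40 SE, edgeR adjusted p = 0.0270). Both were lowest in AML 2. Of 20 fibrillar and interstitial matrix genes tested, Col3a1 alone passed with edgeR and 17 lay below 0, with a median of -0.65. DESeq2 called Col3a1 and Aspn (632 against 239 CPM, log2 change -1.38, DESeq2 adjusted p = 0.0254). Col14a1, a fibril-associated collagen (102 against 28.3), Tnxb, a tenascin (141 against 51.6), and Ogn, a small proteoglycan (1150 against 556), were lower in every AML library without passing by either tool.

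Of 14 elastic fibre genes, Fbln5 alone passed with edgeR and with DESeq2, and 13 lay below 0 (median -0.50). Eln, elastin itself, was at 1127 against 551 CPM with overlapping libraries (adjusted p = 0.451), and Ltbp4, which binds latent TGF-beta and elastic fibres, at 465 against 233 without overlap (adjusted p = 0.231). Mgp, a calcification inhibitor, lay the other way at 5647 against 6631. Of 21 basement membrane genes 0 passed with edgeR or DESeq2 and 2 were at an unadjusted p under 0.05, with 18 below 0 (median -0.37). Of 7 genes of collagen folding 0 passed by either tool and 3 were at an unadjusted p under 0.05. P4ha1, a prolyl hydroxylase that stabilises collagen, was closest, at 93.4 against 27.4 (adjusted p = 0.0573).

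Some lists of markers of neighbouring mesenchymal cells moved with these matrix genes and 1 did not. The 9 alveolar duct myofibroblast markers summed to 1112 to 1670 CPM in the Controls and 538 to 660 in the AML libraries. None was at 0, but Aspn and Hhip, both named above for the Hhip cells, carried a large part of this sum and of its fall. Without scaling between libraries, as in the sum, Aspn was at 575 against 206 CPM in the group means. Hhip was at 398 against 175. Pdgfra of that list had 3 UMIs in all smooth muscle cells together. The 10 adventitial fibroblast markers summed to 116 to 384 against 69.2 to 92.2, with Ccl11 at 0, and the 11 pericyte markers to 546 to 740 against 319 to 503. Dcn and Dpt of the adventitial list were leading genes of the Hhip cells, which held 57 of the 65 Dcn UMIs. Col14a1, given above as a matrix gene, is on that list too. The 10 alveolar fibroblast markers summed to 665 to 1287 against 598 to 1134, an overlap, with Slc7a10, Wnt2 and Fgfr4 at 0. The part of such cells or of their free RNA in the result was not tested. Without the 25 Hhip cells, Col3a1 stayed lower by a log2 change of -1.65 (adjusted p = 0.0344) and Fbln5 by -1.99 (adjusted p = 0.0311).

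**Figure D3:**
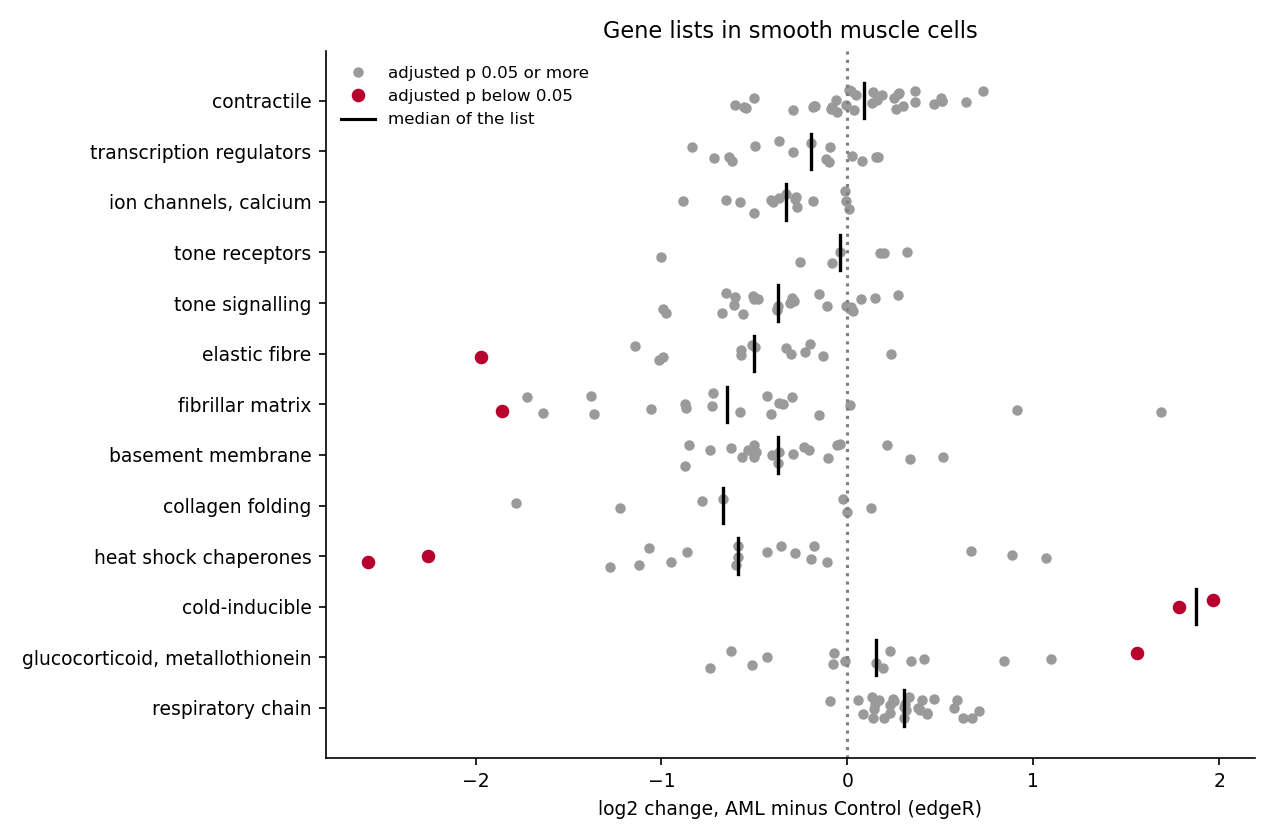
Each point is 1 tested gene, with its log2 change between AML and Control smooth muscle cells on the x axis and its list on the y axis; red points passed an adjusted p of 0.05 and black lines are list medians. The contractile median lies near 0, the matrix medians between -0.67 and -0.37, and both cold-inducible genes above 1.7.

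The smallest adjusted p-values belonged to a pair of stress chaperones. Hspa1b, the inducible HSP70 (chr17:34956436-34959238), was at 832, 513 and 683 CPM in the Control and 88.2, 143 and 111 in the AML libraries, in numbered order. Hspa1b fell 5.97-fold (log2 change -2.58 ± 0.32 SE, edgeR adjusted p = 3.5e-04). Hspa1a (chr17:34969190-34972156) fell from 785, 607 and 674 to 104, 215 and 123 CPM (log2 change -2.25 ± 0.32 SE, adjusted p = 0.0014). They are near-identical copies, so the split of reads between them is uncertain and they are best read as 1 measurement. In the 107-cell set alone (4 libraries) the log2 changes were -1.27 for Hspa1b and -0.93 for Hspa1a, and neither passed (edgeR adjusted p = 0.202 and 0.437). Of 19 cytosolic chaperone genes tested, these 2 passed with edgeR, and DESeq2 added Dnaja1 (624 against 298 CPM, DESeq2 adjusted p = 0.0254). Of the 19, 10 had every AML library below every Control, among them Hsph1 (158 against 67.2), Hspa8 (1808 against 990.1) and Hsp90aa1 (1400 against 933). The small heat shock proteins that muscle is known for lay the other way, with Hspb1 at 1940 against 4073 and Hspb7 at 239 against 437, and neither passed (adjusted p = 0.315 and 0.470).

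Both cold-inducible RNA-binding genes rose. Rbm3 (chrX:8138975-8145880) was at 270, 305 and 240 CPM in the Control against 513, 1064 and 1240 in the AML libraries (log2 change 1.78 ± 0.32 SE, edgeR adjusted p = 0.0128). Cirbp (chr10:80165985-80172786) was at 59.5, 57.3 and 49.8 against 124, 365 and 187 (log2 change 1.96 ± 0.37 SE, adjusted p = 0.0171). AML 1 was the lowest AML library for each but lay above all Controls. Of 16 immediate early genes, which tissue dissociation is known to raise, 0 passed with edgeR or DESeq2, and 2 were at an unadjusted p under 0.05, Egr1 (729 against 347) and Ier3 (87.1 against 151).

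Mt1, a metallothionein that binds zinc and copper (chr8:94179082-94180327), rose from 1697, 1402 and 1611 to 2663, 5200 and 5988 CPM (log2 change 1.56 ± 0.28 SE, edgeR adjusted p = 0.0128). In the 107-cell set alone its log2 change was 0.06 (adjusted p = 0.994). Its paralogue Mt2 was at 324 against 684 with overlapping libraries. Of 15 glucocorticoid and metallothionein genes Mt1 alone passed with edgeR and with DESeq2, and 8 lay above 0 and 7 below. Of 29 nuclear genes of the respiratory chain 28 lay above 0 (median 0.30), but 0 passed with edgeR or DESeq2 and 4 were at an unadjusted p under 0.05.

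**Figure D4:**
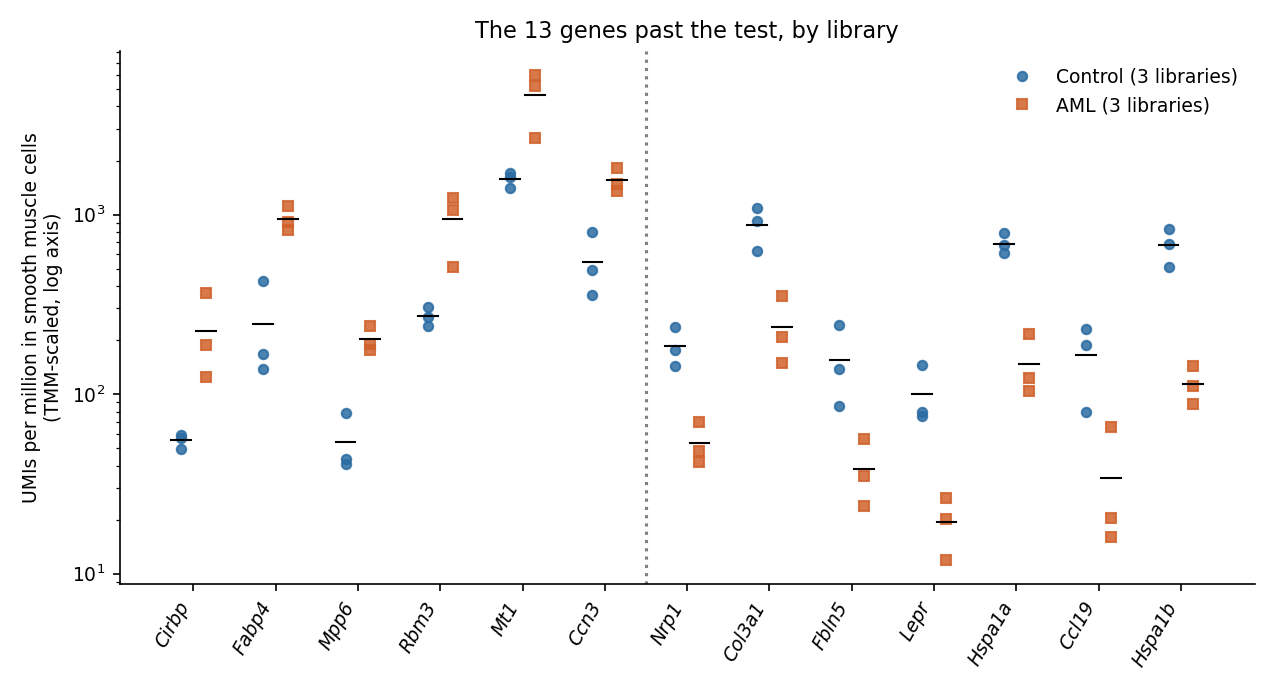
The 13 genes that passed the test on the x axis and their CPM in smooth muscle cells on a log y axis, 1 point per library (circles Control, squares AML) with the mean of 3 as a black line. The 6 genes left of the dotted line are higher in all AML libraries and the 7 to its right are lower in all of them.

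Fabp4, Ccn3 and Mpp6 rose without belonging to a list. Fabp4 (chr3:10204088-10208576) was at 139, 427 and 167 CPM in the Control against 907, 1112 and 816 in the AML libraries (log2 change 1.92 ± 0.36 SE, edgeR adjusted p = 0.0171). Ccn3 (chr15:54745702-54754039) was at 357, 795 and 489 against 1360, 1817 and 1483 (log2 change 1.496 ± 0.30 SE, adjusted p = 0.0205). Mpp6, a membrane scaffold protein (chr6:50110241-50198939), was at 43.6, 78.2 and 40.7 against 176, 239 and 190.1 (log2 change 1.82 ± 0.33 SE, adjusted p = 0.0128). Control 2 was the highest Control for all of them and still lay below each AML library. These genes lead the set of 33 cells described above. In the 107-cell set alone Ccn3 differed by a log2 change of 0.67 (adjusted p = 0.520) and Fabp4 by 1.84 (adjusted p = 0.197), and Mpp6 was not tested there.

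Nrp1, Lepr and Ccl19 fell. Nrp1, a co-receptor for semaphorins and VEGF (chr8:128358604-128503363), went from 238, 143 and 176 to 48.1, 41.8 and 70.2 CPM (log2 change -1.73 ± 0.33 SE, edgeR adjusted p = 0.0171). Lepr, the leptin receptor (chr4:101717404-101815352), went from 79.3, 75.6 and 145 to 20.1, 11.96 and 26.3 (log2 change -2.21 ± 0.43 SE, adjusted p = 0.0185). Lepr was higher in the Hhip cells, at 234 against 40.1 CPM, and without them its log2 change was -1.87 with an adjusted p of 0.217. Ccl19, a chemokine for lymphocytes and dendritic cells (chr4:42754525-42756577), went from 79.3, 188 and 231 to 16.0, 65.8 and 20.5 (log2 change -2.44 ± 0.49 SE, adjusted p = 0.0397). Of 9 inflammatory genes tested it alone passed.

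Single libraries decided many of these calls. With each library left out in turn, Hspa1a and Hspa1b passed in 6 of 6 fits (edgeR adjusted p up to 0.0165), whereas each of the other 11 lost its call without at least 2 libraries. Leaving out Control 1 or Control 3 left 3 calls and leaving out Control 2 left 8, while dropping AML 1 gave 33, AML 2 22 and AML 3 18 calls. All 13 kept their direction in every such fit, with log2 changes of at least 1.26 in size. In the 107-cell set alone, in Control 2 and 3 and AML 2 and 3, 10 of the 13 were tested and Ccl19, Rbm3 and Cirbp passed, while Col3a1 (log2 change -1.305, adjusted p = 0.159) and Nrp1 (-1.66, adjusted p = 0.0920) did not. In the airway-type cells alone 10 genes passed, 9 of them among the 13. In the vascular-type cells, with 5 libraries and 2124 genes, 0 passed with edgeR, 108 were at an unadjusted p under 0.05, and DESeq2 was not run.

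The same libraries gave like differences in cells other than smooth muscle for some of these genes and not for others. In all other niche cells together, 10 of the 13 had no overlap between groups in the same direction, beside 29.8% of the 3969 genes without overlap in either direction (18.5% with AML higher, 11.2% with AML lower). In the cells called alveolar duct myofibroblasts here, which also held fibroblast genes, it was 6 of the 13, beside 13.8% of all (5.79% higher, 7.99% lower). In pericytes it was 3 of the 13, beside 10.8% of all (5.37% higher, 5.39% lower). The pericyte count used all 6 libraries, with only 5 pericytes in Control 1 and 6 in AML 1. Ccn3 and Fabp4 had 0 UMIs in all pericytes, Fbln5 had 1 and Mpp6 had 2, so these genes could not separate the groups there. Hspa1b was at 100 against 11.6 CPM in the other niche cells, Rbm3 at 206 against 610 and Col3a1 at 90.1 against 33.1, here without scaling between libraries. Ccn3 was at 10.1 against 9.64 there and Fabp4 at 30.9 against 56.0, both with overlap, beside 496 against 1358 and 221 against 829 in the smooth muscle cells on that scale. Nrp1 was higher in AML duct myofibroblasts, at 304 against 488. Whether smooth muscle cells differ from these cells was tested only against pericytes.

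**Figure D5:**
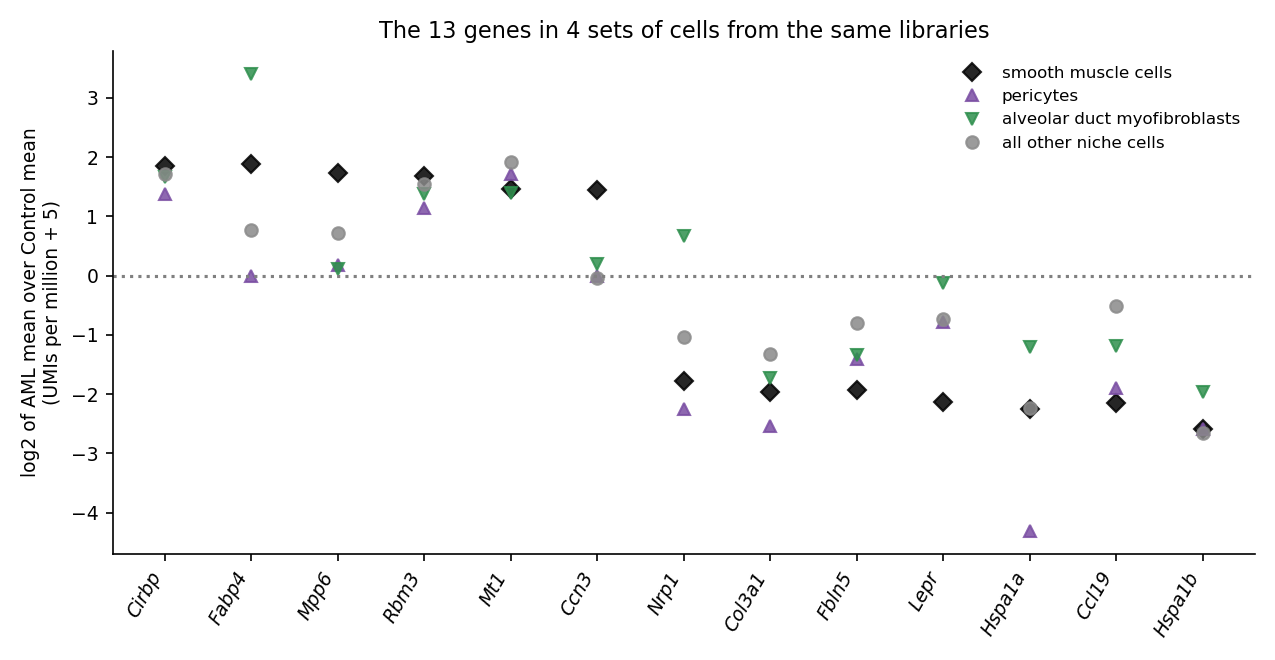
The 13 genes on the x axis and the log2 ratio of the AML to the Control mean (CPM + 5) on the y axis, in smooth muscle cells (black diamonds), pericytes (107 cells), alveolar duct myofibroblasts (182 cells) and all other niche cells. The duct myofibroblasts are cells chosen by Pdgfra with Aspn or Hhip, which also held fibroblast genes. Hspa1b, Rbm3, Cirbp and Mt1 lie close together across the 4 sets, while Hspa1a runs from -4.31 in pericytes to -1.20 in duct myofibroblasts. That pericyte point rests on Hspa1a at 0, 12.4 and 15.2 CPM in AML 1, 2 and 3, where 3 counts would be 192, 37.1 and 45.7. Since Hspa1a and Hspa1b are near-identical copies, a gap between their points is no difference between 2 genes. The points do not show overlap between groups. Libraries overlapped for Hspa1b in duct myofibroblasts, for Hspa1a in pericytes and duct myofibroblasts, for Rbm3 in pericytes, and for Mt1 in pericytes and all other niche cells. Ccn3 and Fabp4 had 0 UMIs in the pericytes of every library, so their points there carry no information. Those of Fbln5 and Mpp6 rest on 1 and 2 UMIs. Ccn3 is near 0 in the other niche cells.

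The difference between groups was set against that in pericytes, the contractile-poor mural cells of capillaries, in the 4 libraries with 10 or more cells of both kinds (Control 2 and 3, AML 2 and 3). Of 3733 genes 13 had a different change in the 2 cell types at an edgeR adjusted p below 0.05 (0.348%), and none of them was among the 13 genes above. That does not show that those genes changed alike in pericytes. In all pericytes Ccn3 and Fabp4 had 0 UMIs, Fbln5 1 and Mpp6 2, so for these the test had almost no pericyte counts to use. Cryab, a small heat shock protein, was at 474 and 376 CPM in Control and 528 and 1043 in AML smooth muscle cells, but at 901 and 1110 against 75.1 and 218 in pericytes (difference of log2 changes 3.68 ± 0.52 SE, adjusted p = 9.1e-09). Myl9 was at 5042 and 3366 against 3673 and 7071 in smooth muscle cells, and at 311 and 454 against 12.5 and 156 in pericytes (adjusted p = 3.7e-04). Tmsb4x, which holds actin monomers, Vim, an intermediate filament protein, and Ccn2, a matricellular protein, differed in the same sense, with the larger part of the gap for Tmsb4x and Vim on the pericyte side. Mgp had 58 and 8 UMIs in Control 2 and 3 pericytes and 0 in those of AML 2 and 3, where 3 counts would be 37.1 and 45.7 CPM. Rgs5, a mural cell regulator, and Apoe, a lipid carrier, differed in the opposite sense. Rgs5 had 1 and 1 UMI in Control 2 and 3 pericytes and 13 and 24 in those of AML 2 and 3. Myl9 had 1 UMI in the AML 2 pericytes. Without Control 2 or without Control 3 the count of 13 fell to 1, and without AML 3 to 7, with 11 to 33 pericytes a library.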

How the data were processed

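The deposited values are raw UMI counts per gene and barcode over 32285 features. The authors made these counts against mm10 with Cell Ranger, version 6.0.1 per the file headers but 7.0.0 per the submitters' processing notes. Members, gene lists, markers and tests were chosen with earlier results of these data known. UMIs were summed per library over the cells and tested with edgeR 4.0.16 (TMM, filterByExpr, robust quasi-likelihood; R 4.3.3) with Benjamini-Hochberg adjustment; DESeq2 1.42.0 was an alternative. Genes given in full passed the test without overlap at 20 or more CPM in a group; contractile, regulator, channel, receptor and signalling genes at 50 or more were described whether or not they passed. Clusters used scanpy 1.11.5 (1500 variable genes, 20 components, 15 neighbours, Leiden resolution 0.6). Doublets stayed in; Scrublet marked 4 of the 243 cells. Replicate numbers were not used to pair libraries in the main test, and a pairing was not excluded. On simulated counts for this comparison over 3969 genes, 92% of 4-fold and 37% of 2-fold changes were called, with 3.73% false calls. Promoters are RefSeq's and coordinates GENCODE's, both GRCm38 (mm10).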

Additional observations from a re-analysis of the deposited data

Results flagged for a closer look

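The change between AML and Control libraries differed between smooth muscle cells and pericytes, by a test of the difference itself, for 13 genes. The differences of log2 changes (smooth muscle minus pericytes, 4 libraries) of the 8 with the smallest p were 8.72 for Mgp, 3.68 for Cryab, 1.88 for Tmsb4x, -5.52 for Rgs5, -2.66 for Apoe, 2.61 for Myl9, 2.35 for Ccn2 and 2.20 for Vim. The value for Mgp rests on 0 UMIs in the AML pericytes and is no bound. That for Rgs5 rests on 1 UMI in the pericytes of Control 2 and 1 in those of Control 3. Myl9 had 1 UMI in the AML 2 pericytes. The sizes of these differences are therefore uncertain. Without Control 2 or without Control 3, 1 gene passed.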

How the results depend on the processing

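The 13 genes that differed between AML and Control smooth muscle cells had the same sign in all 240 values from alternatives, 188 of them past the threshold, but some shrank: in 1 cluster only Mt1 was at 0.06, Ccn3 at 0.67, Hspa1a at -0.93 and Hspa1b at -1.27. The count itself moved from 13 to 24 with DESeq2, 43 without the filter on low counts, 3 to 33 with 1 library left out, 0 in vascular-type cells only and 23 in 1 cluster only (4 libraries; 3 of the 13 passed there). With the replicate number as a block it was 35. Deviations of same-numbered libraries from their group means had correlations of -0.03, -0.14 and 0.09, against -0.16 to 0.17 for other pairs. So few values cannot exclude a shared batch or pairing, and the main test used no block. Leaving out Hhip cells, the 9 cells of 1 library or Scrublet doublets, other gates and other size factors gave 13 to 18; the subsets of Hhip cells, clusters and airway-type cells were chosen after seeing the data. The count against pericytes ranged from 1 to 13 with 1 library left out. The share of niche cells (difference 0.0648 points) turned to -5.59 over the niche barcodes low in endothelial genes and without Epcam. With 1 library left out it ranged from -0.0413 to 0.179 (-0.0413 without Control 3, -0.0205 without AML 2). The airway-type share ranged from -10.0 to 0.222 points, positive without AML 2. The causes were not tested. At this depth most 2-fold changes were not called on simulated counts.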

Other observations

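The lists of TGF-beta and BMP, of Notch and PDGF, and of blood cell support genes gave no calls with edgeR or DESeq2. Nrp1, Lepr and Ccl19, which passed above, are on none of these lists. Of 20 TGF-beta and BMP genes 14 lay below 0 (median log2 change -0.31), and 7 were at an unadjusted p under 0.05, all lower in AML. Among them Tgfb2, a TGF-beta ligand, stood at 274 against 144 CPM in the group means, and Id1, a known BMP target, at 269 against 170.0 without overlap. Notch3 was lower in all AML libraries (195 against 116 CPM, edgeR adjusted p = 0.470), as 1 of 7 Notch and PDGF genes tested. All 4 tested factors known to support blood cells lay below 0, led by Csf1, the macrophage growth factor (72.5 against 21.7 CPM, adjusted p = 0.162), with Cxcl12, which holds blood stem cells in their niche, at 94.1 against 58.2 CPM. Of 15 endoplasmic reticulum chaperone genes 13 lay below 0 (median -0.31), and of 5 type I interferon genes 4. The duct myofibroblast marker sum given above moved with these genes, and its part was not tested.

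Hmgb2, a chromatin protein of dividing cells, was at 42.3 against 190 CPM without overlap (log2 change 2.14 ± 0.48 SE). It passed with DESeq2 but not with edgeR (adjusted p = 0.0975). Tnnt2 also passed with DESeq2 (log2 change 2.75, DESeq2 adjusted p = 0.0021) but not with edgeR. It was among the leading genes of the 33-cell set, at 270 against 66.2 CPM in the other cells.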
